A study of Rattus norvegicus with 11 samples.

Results

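The response to a polylactide membrane was compared with the response to a chitosan hydrogel, at the level of every gene, in cells from healing skull defects of rats. The comparison used 5 of the 11 RNA-seq libraries of the series, 2 of PLA and 3 of CTS, taken by their labels. PLA was an electrospun membrane of poly(L-lactide), and CTS was a porous chitosan hydrogel crosslinked with tripolyphosphate and freeze-dried. All animals were Sprague Dawley rats aged 4 months, described in the study's methods as male, and all carried the same rectangular defect through bone and coronal suture of the calvaria, and by the labels the groups differ in the implant alone. New tissue was collected 6 weeks after surgery and digested with type 1 collagenase. Its cells were treated with red cell lysis buffer, fixed, permeabilised and, by the labels, sorted as Cd45-. The labels do not say whether libraries came from separate rats, so p-values measure the spread between these samples, which may be technical. The other 6 libraries, 3 of the unfilled defect (NC) and 3 of a gelatin hydrogel (GelMA), entered the fit for its estimate of spread.

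The genes followed were those of cell division, of granulocytes, of sugar breakdown and of cell stress. A dividing cell first copies its DNA with a set of replication enzymes and then separates the copies with the mitotic spindle, and both sets of genes are switched on by the cell cycle itself. Granulocytes make their granule proteins while they mature in the bone marrow, and afterwards carry genes for migration and for sensing inflammation. Glycolysis turns glucose into pyruvate and, with lactate dehydrogenase, into lactate, while the stress programs respond to misfolded proteins, amino acid shortage, oxidants or DNA damage.

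The PLA libraries held 30932534 and 30150370 counts, and the CTS libraries held 31290849, 29081608 and 28377088 counts. Levels are given as CPM, the counts of a gene in every 1000000 of a library after TMM, which rescales each library for its composition. TMM factors were 0.780 and 0.772 in PLA, against 1.08, 1.09 and 1.08 in CTS. Every log2 fold change here is PLA over CTS, and a gene was called where edgeR's quasi-likelihood test gave it an adjusted p (Benjamini-Hochberg) under 0.05 and the log2 fold change was over 1 in size. Of 18049 genes tested, 1158 (6.42%) were called higher and 637 (3.53%) lower in PLA. Both PLA libraries lay above every CTS library for 26.5% of the genes and below every CTS library for 27.8%. When libraries were scaled by size alone, the median of all genes moved to −0.51 from −0.03 with TMM, and 688 genes were higher and 2227 lower, so that the share of calls that were higher became 23.6%, against 64.5%. With PLA replicate 1 left out, 642 genes were higher and 154 lower, and with PLA replicate 2 left out, 674 and 95. The numbers were 740 and 325 when CTS replicate 1 was dropped, 746 and 337 for CTS replicate 2, and 1588 and 1111 for NC replicate 2, which stands apart in its own group. Across genes, which do not replicate each other, correlations of log2(CPM + 1) were 0.985 between the PLA libraries, 0.978 to 0.985 among the CTS libraries and 0.925 to 0.944 between the groups. Ptprc, which encodes Cd45, goes against the Cd45- label, with 1020 and 1055 CPM in PLA, against 1272, 1184 and 1036 CPM in CTS. Its log2 fold change was −0.17 (SE 0.46, adjusted p = 0.855), and leukocyte genes were present in all 5 libraries.

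Genes of cell division were lower in PLA, genes of glycolysis and of stress were higher, and granulocyte genes went both ways. Of 101 proliferation genes tested, 64 were called lower and 2 higher. Of 55 granulocyte genes, 25 were lower and 6 higher. Of 37 genes of glycolysis and pyruvate use, 13 were higher and 0 lower, and of 134 stress genes, 42 were higher and 2 lower. Median log2 fold changes were −1.96 for the proliferation genes, −2.28 for the granulocyte genes, 0.84 for the glycolysis genes and 0.57 for the stress genes, beside −0.03 for all genes tested. With library size alone, 8 glycolysis genes were higher and 5 lower, and 24 stress genes were higher and 8 lower.

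**Figure D1:**
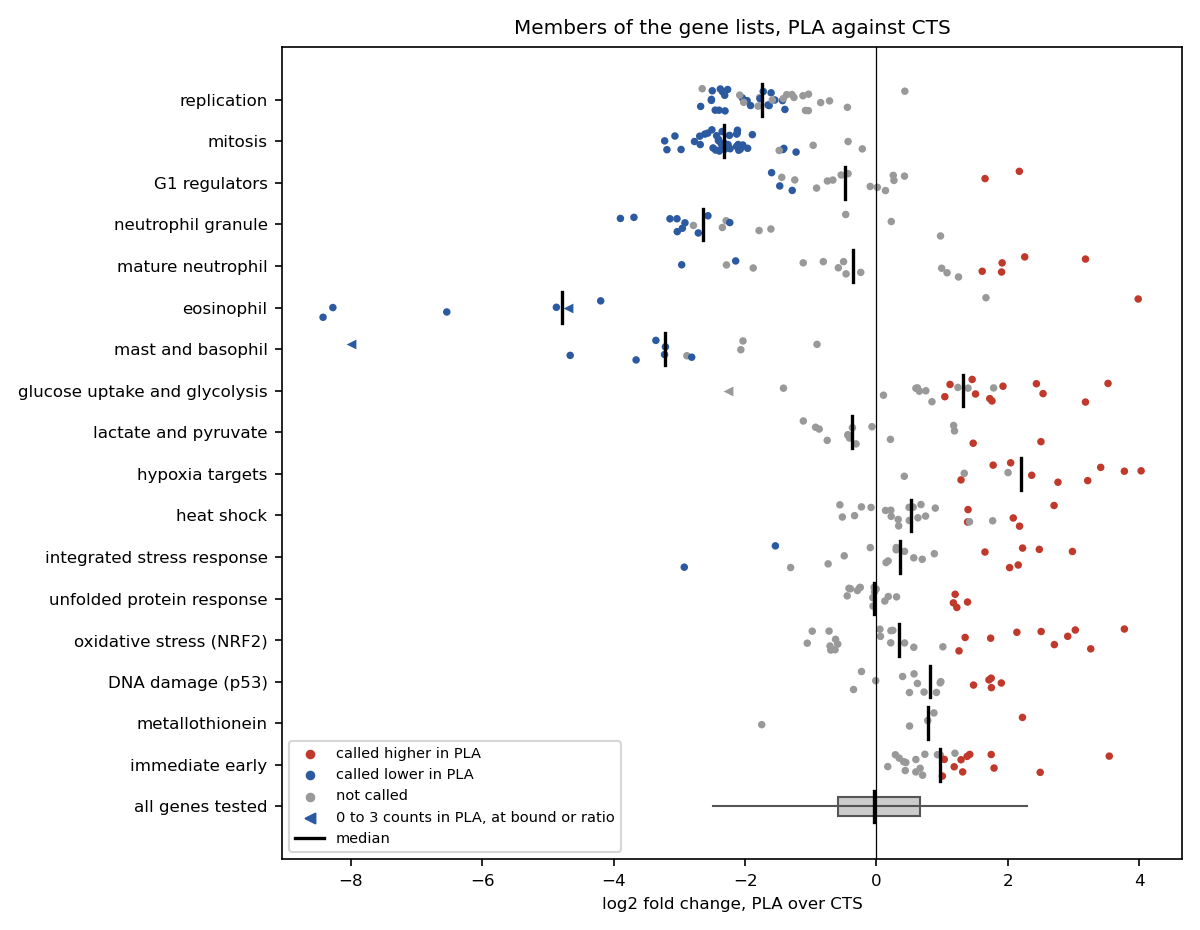
Log2 fold change (PLA over CTS) of each tested member of 17 gene lists, with the list's median as a black bar, and for all 18049 genes a box of the middle 50% with whiskers over the middle 90%. Triangles are genes with 0 to 3 counts over both PLA libraries at their bound or ratio, and the mitosis members lie below 0 and the hypoxia members above 0.

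Replication genes were lower in PLA. Of 40 tested, 22 were called lower and 0 higher, with called values between −2.68 and −1.39 and a list median of −1.75. Both PLA libraries lay below every CTS library for 38 of the 40. Tyms, the enzyme that makes thymidylate for DNA, had 12.8 and 12.6 CPM in PLA, against 65.6, 77.8 and 49.8 CPM in CTS. Pola1, the catalytic subunit of DNA polymerase alpha, had 10.4 and 11.2 CPM in PLA, against 43.6, 47.7 and 31.2 CPM in CTS. Mcm4, a subunit of the replicative helicase, had 24.8 and 25.6 CPM in PLA, against 91.3, 89.3 and 69.0 CPM in CTS. In each of these genes the PLA libraries were close together and the lowest CTS library stood well above them. Their log2 fold changes were −2.34 (SE 0.30, adjusted p = 0.000922) for Tyms, −1.92 (SE 0.28, adjusted p = 0.00210) for Pola1 and −1.72 (SE 0.27, adjusted p = 0.00301) for Mcm4. Lig1, the ligase that joins newly made DNA fragments, was called at −1.97 (SE 0.36, adjusted p = 0.00637). The exception in direction was Pcna, the sliding clamp of DNA polymerases, which is also used in DNA repair. It had 439.5 and 429.5 CPM in PLA, against 322, 327 and 317 CPM in CTS, so that PLA lay above CTS, and its log2 fold change of 0.43 (SE 0.24, adjusted p = 0.278) did not pass the test and was −0.05 with library size alone.

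Mitosis genes were lower in PLA as well. Of 43 tested, 39 were called lower and 0 higher, with called values between −3.22 and −1.22 and a list median of −2.32. Top2a, the topoisomerase that untangles chromosomes, had 28.2 and 23.2 CPM in PLA, against 227, 242 and 138 CPM in CTS. Mki67, which encodes the proliferation marker Ki-67, had 39.9 and 33.7 CPM in PLA, against 271, 265 and 174 CPM in CTS. Cdc20, an activator of the complex that starts chromosome separation, had 2.74 and 1.72 CPM in PLA, against 12.6, 14.6 and 10.4 CPM in CTS. The groups did not overlap in these genes, and CTS replicate 3 was the lowest CTS library in all of them. Log2 fold changes were −2.97 (SE 0.49, adjusted p = 0.00357) for Top2a, −2.68 (SE 0.52, adjusted p = 0.00864) for Mki67 and −2.49 (SE 0.34, adjusted p = 0.00137) for Cdc20. Smc2, a subunit of condensin, was called at −2.12 (SE 0.32, adjusted p = 0.00236), and Ndc80, a kinetochore protein that binds microtubules, at −2.26 (SE 0.38, adjusted p = 0.00403).

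**Figure D2:**
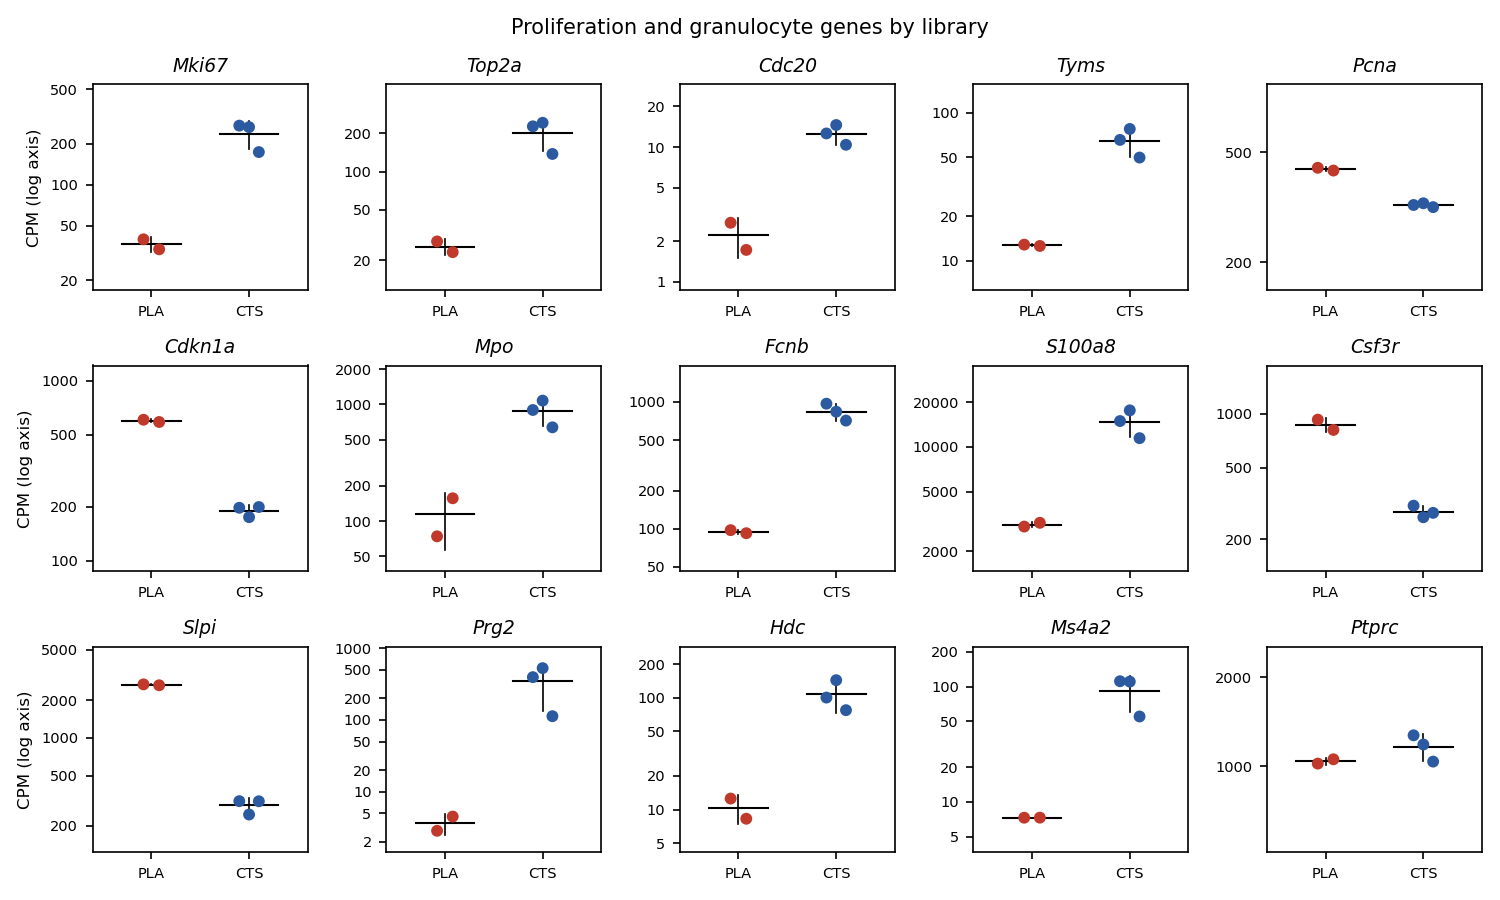
CPM per library on log axes for 15 genes of proliferation and granulocytes, Ptprc included, with a point for each library and bars for the mean and its SD (n = 2 in PLA, n = 3 in CTS). PLA lies below CTS for Mki67, Top2a, Cdc20, Tyms, Mpo, Fcnb, S100a8, Prg2, Hdc and Ms4a2, and above CTS for Pcna, Cdkn1a, Csf3r and Slpi.

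In bulk RNA, fewer cells of a type and less RNA per cell cannot be told apart, here or in the lists below. The number of proliferation calls depended on single libraries. It was 12 lower genes without PLA replicate 1, 9 without PLA replicate 2, 32 without CTS replicate 1 and 36 without CTS replicate 2, and the median of the mitosis list stayed between −2.55 and −2.17 in these fits and without CTS replicate 3. Without NC replicate 2, 36 replication genes were lower in place of 22. Of the genes given above, the calls were lost for Lig1 without PLA replicate 2 (adjusted p = 0.0802), Mki67 without PLA replicate 1 (adjusted p = 0.0745) or PLA replicate 2 (adjusted p = 0.0949), Top2a without PLA replicate 2 (adjusted p = 0.0540) and Ndc80 without PLA replicate 2 (adjusted p = 0.0574). Granule genes that neutrophil precursors express moved with these lists, with a summed level of 5015 and 4731 CPM in PLA, against 14280, 17840 and 8170 CPM in CTS, and their part in the fall of the proliferation genes was not tested.

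The promoters of these genes are shown because motifs that cell cycle regulators are known to bind recur in them. Sequences are from RefSeq for assembly GRCr8 and run from 250 bases before to 50 after the gene start, whereas the counts were made on mRatBN7.2. The CHR motif, searched as TTTGAA or TTCGAA on both strands, was in 27 of the 37 mitosis promoters found (73%), beside 14.9% of 13222 promoters of all genes tested. The E2F site, searched as TTTCCCGC, TTTCGCGC, TTTGCCGC or TTTGGCGC on both strands, was in 14 of 31 replication promoters (45.2%), beside 3.52% of all. These matches are descriptions of letters and not of binding. The examples below are the called members with a match and the lowest adjusted p, with the match in capitals. It starts at position −51 from the gene start in Cdc20, at −103 in Smc2, where it is read from the opposite strand, and at −37 in Tyms, which holds the E2F site.
Cdc20, chr5:137255750-137256049, minus strand: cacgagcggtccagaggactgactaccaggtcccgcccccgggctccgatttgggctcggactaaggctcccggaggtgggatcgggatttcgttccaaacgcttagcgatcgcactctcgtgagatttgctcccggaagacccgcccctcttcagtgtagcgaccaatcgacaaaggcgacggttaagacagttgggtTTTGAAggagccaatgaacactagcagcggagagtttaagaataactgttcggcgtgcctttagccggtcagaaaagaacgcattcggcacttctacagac
Smc2, chr5:71602155-71602454, plus strand: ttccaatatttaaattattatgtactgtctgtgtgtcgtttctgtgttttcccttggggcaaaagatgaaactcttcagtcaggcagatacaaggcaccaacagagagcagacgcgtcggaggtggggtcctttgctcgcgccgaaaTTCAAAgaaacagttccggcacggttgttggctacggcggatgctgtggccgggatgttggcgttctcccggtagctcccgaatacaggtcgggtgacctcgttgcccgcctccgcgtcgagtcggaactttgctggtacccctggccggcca
Tyms, chr9:120776034-120776333, minus strand: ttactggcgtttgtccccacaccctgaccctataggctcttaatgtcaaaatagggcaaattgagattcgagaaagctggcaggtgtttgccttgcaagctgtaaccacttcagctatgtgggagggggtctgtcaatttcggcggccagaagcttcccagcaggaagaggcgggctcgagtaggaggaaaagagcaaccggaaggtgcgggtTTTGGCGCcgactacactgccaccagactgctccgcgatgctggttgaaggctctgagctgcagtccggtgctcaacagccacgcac

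Regulators of entry into the cycle went both ways. Of 18 tested, 2 were called higher and 3 lower, with a median of −0.49. The higher calls are 11.1% of the list, near the 6.42% of all genes called higher. The lower calls are 16.7%, beside 3.53% of all genes. Cdkn1a, the inhibitor p21 that stops cyclin-dependent kinases, had 606 and 589 CPM in PLA, against 197, 175 and 199 CPM in CTS, and Cdkn2b, the inhibitor p15, had 28.1 and 43.9 CPM in PLA, against 10.7, 7.97 and 5.21 CPM in CTS. Both lay above every CTS library, with log2 fold changes of 1.65 (SE 0.22, adjusted p = 0.00128) and 2.17 (SE 0.49, adjusted p = 0.0176). Those called lower were Ccnd3, a D-type cyclin, at −1.60 (SE 0.45, adjusted p = 0.0407), Rbl1, the pocket protein p107, at −1.47 (SE 0.38, adjusted p = 0.0283), and Cdk2, the kinase of the step into DNA synthesis, at −1.28 (SE 0.33, adjusted p = 0.0296). Ccnd1, another D-type cyclin, had 22.8 and 23.5 CPM in PLA, against 17.3, 10.4 and 24.0 CPM in CTS, with overlapping groups and a log2 fold change of 0.43 (SE 0.38, adjusted p = 0.513) that became −0.05 with library size alone. Calls were lost for Cdkn2b without PLA replicate 1, PLA replicate 2, CTS replicate 2 or CTS replicate 3 (adjusted p from 0.0511 to 0.139), Ccnd3 without GelMA replicate 1, GelMA replicate 2, NC replicate 3, PLA replicate 1, PLA replicate 2, CTS replicate 1 or CTS replicate 2 (adjusted p from 0.0515 to 0.206), Rbl1 without PLA replicate 1, PLA replicate 2, CTS replicate 1 or CTS replicate 2 (adjusted p from 0.0644 to 0.181) and Cdk2 without PLA replicate 1, PLA replicate 2, CTS replicate 1 or CTS replicate 2 (adjusted p from 0.0693 to 0.208).

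Genes of neutrophil granules were lower in PLA. Of 18 tested, 10 were called lower and 0 higher, with a median of −2.64. Fcnb, a ficolin of neutrophil granules, had 97.5 and 92.3 CPM in PLA, against 967, 837 and 712 CPM in CTS. Mpo, myeloperoxidase of the primary granules, had 74.0 and 157 CPM in PLA, against 896, 1079 and 637 CPM in CTS. Elane, neutrophil elastase, had 18.2 and 25.4 CPM in PLA, against 141, 178 and 108 CPM in CTS. The groups did not overlap in any of these. Fcnb was called at −3.14 (SE 0.53, adjusted p = 0.00422), Mpo at −2.92 (SE 0.78, adjusted p = 0.0333) and Elane at −2.71 (SE 0.70, adjusted p = 0.0289). Cd177, a surface glycoprotein of neutrophils, was called at −3.90 (SE 0.89, adjusted p = 0.0179), the collagenase gene Mmp8 at −3.04 (SE 0.73, adjusted p = 0.0223) and the protease gene Ctsg, cathepsin G, at −3.03 (SE 0.72, adjusted p = 0.0214). All 10 calls were lost without PLA replicate 1 and without PLA replicate 2, where the list median was −2.49 and −2.94, and 6 were left without GelMA replicate 2, 3 without CTS replicate 1 and 2 without CTS replicate 2. Lcn2, lipocalin 2, named after its values were seen, had 2401 and 1936 CPM in PLA, against 992, 1570 and 749 CPM in CTS, the reverse order, and did not pass the test (0.97 (SE 0.65, adjusted p = 0.363)).

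Genes of mature neutrophils split. Of 18 tested, 5 were called higher and 2 lower, with a median of −0.35. Both PLA libraries lay above every CTS library for 8 genes and below for 10. The balance of calls depended on the fit, with 2 higher and 3 lower in both limma fits. It was 7 and 5 with edgeR on the 5 libraries. Slpi, an inhibitor of neutrophil proteases, had 2665 and 2621 CPM in PLA, against 314, 246 and 314 CPM in CTS. Il1r2, the decoy receptor for interleukin 1, had 1111 and 1050 CPM in PLA, against 276, 239.9 and 345 CPM in CTS. Csf3r, the receptor for the neutrophil growth factor, had 926 and 812 CPM in PLA, against 308, 265 and 281 CPM in CTS. PLA lay above CTS in all of them. The calls stood at 3.18 (SE 0.49, adjusted p = 0.00274) for Slpi, 1.91 (SE 0.24, adjusted p = 0.000902) for Il1r2 and 1.61 (SE 0.45, adjusted p = 0.0395) for Csf3r, and Trem1, an amplifier of innate signaling, and Mxd1, an antagonist of Myc, were called at 2.26 (SE 0.45, adjusted p = 0.00998) and 1.90 (SE 0.39, adjusted p = 0.0112). Fpr2, a formyl peptide receptor, and Padi4, the enzyme that citrullinates histones, were called lower at −2.97 (SE 0.83, adjusted p = 0.0403) and −2.14 (SE 0.62, adjusted p = 0.0457).

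S100a8 and S100a9 encode calprotectin, an abundant cytosolic protein of neutrophils. S100a8 had 2924 and 3099 CPM in PLA, against 14930, 17610 and 11460 CPM in CTS, and S100a9 had 4247 and 4634 CPM in PLA, against 16450, 19630 and 12840 CPM in CTS. The groups did not overlap in either gene, yet the log2 fold changes of −2.28 (SE 0.76, adjusted p = 0.0732) and −1.88 (SE 0.71, adjusted p = 0.113) did not pass the test. S100a8 passed without NC replicate 1 (adjusted p = 0.0483) or NC replicate 2 (adjusted p = 0.00493), and S100a9 passed without NC replicate 2 (adjusted p = 0.00603). Both genes also passed with edgeR on the 5 PLA and CTS libraries and in both DESeq2 fits. S100a8 passed as well with library size alone and in both limma fits, where S100a9 did not. Together they took 0.578 ± 0.0266% of counts in PLA (SD, n = 2), against 3.35 ± 0.720% in CTS (SD, n = 3), with p = 0.1 in an exact two-sided permutation test, the smallest that 2 against 3 libraries allow. Among mature neutrophil genes, calls were lost for Trem1 without PLA replicate 2 (adjusted p = 0.0658), Mxd1 without PLA replicate 2 (adjusted p = 0.0892), Csf3r without GelMA replicate 1, GelMA replicate 2, GelMA replicate 3, NC replicate 3, PLA replicate 1, PLA replicate 2, CTS replicate 1, CTS replicate 2 or CTS replicate 3 (adjusted p from 0.0527 to 0.184), Fpr2 without GelMA replicate 2, NC replicate 3, PLA replicate 1, PLA replicate 2, CTS replicate 1 or CTS replicate 2 (adjusted p from 0.0512 to 0.246) and Padi4 without GelMA replicate 1, GelMA replicate 2, NC replicate 3, PLA replicate 1, PLA replicate 2, CTS replicate 1 or CTS replicate 2 (adjusted p from 0.0572 to 0.238). Csf3r also lost its call with library size alone, at 1.13 (adjusted p = 0.130), and without PLA replicate 2 the list had 2 higher calls in place of 5. In both limma fits the calls of Csf3r, Trem1 and Mxd1 were lost.

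Eosinophil genes were mostly lower in PLA. Of 8 tested, 6 were called lower and 1 higher. Prg2, the major basic protein of eosinophil granules, had 2.86 and 4.51 CPM in PLA, against 394, 525 and 112 CPM in CTS. Epx, eosinophil peroxidase, had 0.207 and 0.258 CPM in PLA, against 60.3, 165 and 19.0 CPM in CTS, and Alox15, a lipoxygenase, had 0.497 and 0.902 CPM in PLA, against 16.2, 16.4 and 6.13 CPM in CTS. CTS replicate 3 was the lowest CTS library in each and still above both PLA libraries. On the log2 scale the differences were −6.54 (SE 1.14, adjusted p = 0.00490) for Prg2, −8.43 (SE 1.33, adjusted p = 0.00301) for Epx and −4.20 (SE 0.94, adjusted p = 0.0166) for Alox15. Ear1, an eosinophil ribonuclease chosen after its values were seen, had 0 counts in PLA and 157 in CTS, at least 25.8-fold lower in PLA against a floor of 3 counts over the group. It belongs to a family of near-identical genes between which counting can be split, which leaves its value uncertain. The list median was −4.78 with Ear1 at that bound. Siglec5, a sialic acid-binding lectin listed because the mouse gene of that name marks eosinophils, went the other way. It had 457 and 389 CPM in PLA, against 14.7, 59.9 and 5.47 CPM in CTS, a log2 fold change of 3.98 (SE 0.80, adjusted p = 0.00994). The calls left were 1 lower and 0 higher without PLA replicate 1, and 2 lower and 1 higher without PLA replicate 2, and among the genes given with values here they ended for Prg2 without PLA replicate 1 (adjusted p = 0.0691) or PLA replicate 2 (adjusted p = 0.0562), Alox15 without PLA replicate 1 (adjusted p = 0.143) or PLA replicate 2 (adjusted p = 0.102) and Siglec5 without PLA replicate 1 (adjusted p = 0.0516).

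Mast cell and basophil genes were lower in PLA. Of 11 tested, 7 were called lower and 0 higher, with a median of −3.21, and PLA lay below CTS for all 11. Hdc, which makes histamine from histidine, had 12.6 and 8.29 CPM in PLA, against 100.3, 143 and 77.4 CPM in CTS. Ms4a2, the beta subunit of the high-affinity IgE receptor, had 7.30 and 7.31 CPM in PLA, against 111, 110.5 and 55.1 CPM in CTS. Gata2, a transcription factor of both cell types, had 3.90 and 2.54 CPM in PLA, against 29.9, 25.0 and 13.1 CPM in CTS. The groups did not overlap, and log2 fold changes were −3.36 (SE 0.35, adjusted p = 0.000263) for Hdc, −3.66 (SE 0.41, adjusted p = 0.000433) for Ms4a2 and −2.81 (SE 0.42, adjusted p = 0.00221) for Gata2, calls that held without any 1 library. Mcpt2, a mast cell protease, had 1 count in PLA and 517 in CTS, a ratio of CTS to PLA of 255 with an exact 95% interval of 45.6 to 10100 that covers counting error alone. Cpa3, mast cell carboxypeptidase, had 6.34 and 15.9 CPM in PLA, against 94.1, 64.1 and 89.0 CPM in CTS and did not pass the test (−2.89 (SE 1.04, adjusted p = 0.0946)), but passed without NC replicate 1 (adjusted p = 0.0334) or NC replicate 2 (adjusted p = 0.00127). It also passed with library size alone, with edgeR on the 5 libraries, in both DESeq2 fits and in both limma fits. Of this list, 4 genes were called lower without PLA replicate 1. Over the granulocyte lists together, the count called lower was 5 without PLA replicate 1, 7 without PLA replicate 2, and 13 without CTS replicate 1 or CTS replicate 2. These markers belong to Cd45+ cells, which the sort was meant to remove. The study lists for flow cytometry a Cd45 antibody clone raised against the mouse protein, its binding to rat cells was not tested here, and the part that leftover leukocytes have in these values was not tested.

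Genes of glucose uptake and glycolysis were higher in PLA. Of 22 tested, 11 were called higher and 0 lower, and PLA lay above CTS for 19, with a median of 1.32, or 0.84 with library size alone. The number called higher was 7 without either PLA library, without any 1 CTS library, and with library size alone. Slc2a1, the basal glucose transporter, had 1800 and 1898 CPM in PLA, against 160.3, 111 and 210.5 CPM in CTS. Tpi1, triose phosphate isomerase, had 1669 and 1768 CPM in PLA, against 170.2, 165 and 233 CPM in CTS. Pfkl, the liver form of phosphofructokinase, had 274 and 306 CPM in PLA, against 49.1, 51.2 and 49.8 CPM in CTS. In each the CTS libraries stayed far below PLA, and log2 fold changes were 3.52 (SE 0.34, adjusted p = 0.000172) for Slc2a1, 3.18 (SE 0.31, adjusted p = 0.000172) for Tpi1 and 2.54 (SE 0.28, adjusted p = 0.000384) for Pfkl, calls kept without any 1 library and with library size alone. Per length, Tpi1 stood at 921 ± 31.0 FPKM in PLA (SD, n = 2) and 141 ± 27.3 FPKM in CTS (SD, n = 3).

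The forms of a step differed. Hk1, the broadly expressed hexokinase, was called at 1.12 (SE 0.16, adjusted p = 0.00165) and Hk2, the inducible one, at 1.72 (SE 0.51, adjusted p = 0.0493), with 269.9 and 250.1 CPM in PLA, against 66.7, 69.9 and 99.4 CPM in CTS. With library size alone both calls were lost, at 0.64 (adjusted p = 0.0701) for Hk1 and 1.25 (adjusted p = 0.0554) for Hk2. Pfkfb3, which makes an activator of phosphofructokinase, had 553 and 506 CPM in PLA, against 129.5, 121 and 167 CPM in CTS and a log2 fold change of 1.93 (SE 0.40, adjusted p = 0.0113). Gapdh, which serves as a control gene in many assays, had 1254 and 1199 CPM in PLA, against 560.5, 591 and 638 CPM in CTS, and was called at 1.04 (SE 0.31, adjusted p = 0.0499998), with a value of 0.56 and no call with library size alone. The transporter gene Slc2a3, named after its values were seen, ran against the rest with 185 and 204 CPM in PLA, against 539.9, 594 and 422 CPM in CTS, and its log2 fold change of −1.42 (SE 0.47, adjusted p = 0.0740) did not pass the test. Pklr, the pyruvate kinase of liver and red cells, also named for its values, had 0 counts in PLA and 29 in CTS, at least 4.77-fold lower in PLA, and did not pass the test either. Without CTS replicate 3, Hk1 fell just under the fold threshold at 0.99. Leaving out a library ended calls for Hk2 without GelMA replicate 1, GelMA replicate 2, GelMA replicate 3, NC replicate 3, PLA replicate 1, PLA replicate 2, CTS replicate 1, CTS replicate 2 or CTS replicate 3 (adjusted p from 0.0587 to 0.196), Pfkfb3 without PLA replicate 1, PLA replicate 2, CTS replicate 1 or CTS replicate 2 (adjusted p from 0.0539 to 0.0758) and Gapdh without GelMA replicate 1, GelMA replicate 2, GelMA replicate 3, NC replicate 3, PLA replicate 1, PLA replicate 2, CTS replicate 1, CTS replicate 2 or CTS replicate 3 (adjusted p from 0.0780 to 0.211).

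**Figure D3:**
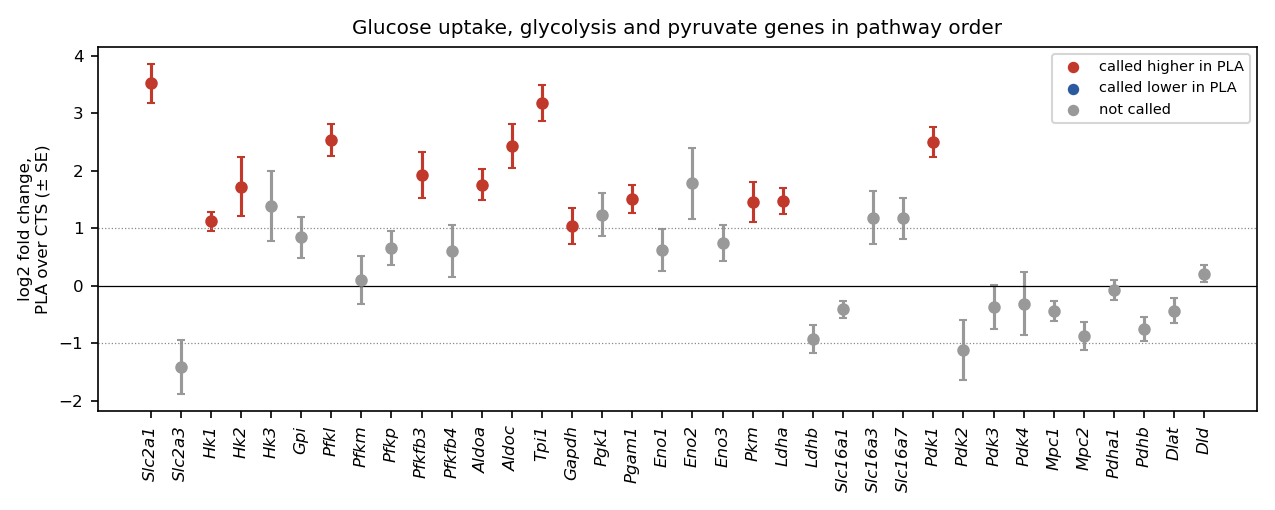
Log2 fold change (PLA over CTS) with its SE for 36 genes of glucose uptake, glycolysis, lactate and pyruvate in pathway order, with dotted lines at the fold threshold. Called genes lie in the steps up to Ldha, with Pdk1 beyond it, and the genes of pyruvate entry into mitochondria lie near or below 0.

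Past pyruvate the list did not move as a whole. Of 15 genes of lactate and pyruvate, 2 were called higher and 0 lower, with a median of −0.37. Ldha, the lactate dehydrogenase subunit that favours lactate, had 1809 and 1757 CPM in PLA, against 619.7, 630 and 679 CPM in CTS. Pdk1, a kinase that shuts pyruvate dehydrogenase, had 62.0 and 68.5 CPM in PLA, against 9.57, 12.6 and 12.3 CPM in CTS. Both lay above every CTS library, with log2 fold changes of 1.47 (SE 0.22, adjusted p = 0.00220) and 2.50 (SE 0.27, adjusted p = 0.000300), that of Ldha falling under the fold threshold at 0.99 with library size alone. Slc16a3, a lactate exporter, had 792 and 762 CPM in PLA, against 389.6, 317 and 317 CPM in CTS and did not pass (1.19 (SE 0.46, adjusted p = 0.121)), but passed without NC replicate 2 (adjusted p = 8.95e-05). It also passed with edgeR on the 5 libraries and with DESeq2 on PLA and CTS.

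Targets of the hypoxia-inducible factors, which share several glycolytic genes, were higher in PLA. Of 12 other genes in this list, 9 were called higher and 0 lower, with a median of 2.20, or 1.73 with library size alone. The 9 include Hif1a, which encodes a subunit of these factors and was listed with their targets. Ero1a, an oxidase of the endoplasmic reticulum, had 780.4 and 846 CPM in PLA, against 50.7, 61.9 and 65.8 CPM in CTS. Kdm3a, a histone demethylase, had 541 and 612 CPM in PLA, against 84.3, 83.9 and 86.7 CPM in CTS. The replicates were close in both groups, and log2 fold changes were 3.77 (SE 0.24, adjusted p = 4.14e-05) and 2.76 (SE 0.17, adjusted p = 4.14e-05). The core of the hypoxia response element was searched as ACGTG on either strand, which is also part of the E-box CACGTG. It was in 9 of 20 promoters of the glycolysis list (45%) and 6 of 10 of the hypoxia list (60%), that of Hif1a included, beside 24% of all promoters.

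Heat shock genes were higher in part. Of 24 tested, 5 were called higher and 0 lower, with a median of 0.53, or 0.05 with library size alone. Hsp90aa1, the inducible form of Hsp90, had 3795 and 4407 CPM in PLA, against 790, 679 and 1249 CPM in CTS. Hsph1, a nucleotide exchange factor of Hsp70, had 1917 and 2450 CPM in PLA, against 307, 191 and 507 CPM in CTS. Dnaja1, a co-chaperone of Hsp70, had 2046 and 2351 CPM in PLA, against 501, 402 and 655 CPM in CTS. PLA lay above CTS in all of them, and CTS replicate 3 was the highest CTS library. Log2 fold changes were 2.18 (SE 0.46, adjusted p = 0.0126) for Hsp90aa1, 2.70 (SE 0.64, adjusted p = 0.0212) for Hsph1 and 2.08 (SE 0.40, adjusted p = 0.00774) for Dnaja1, and Hspa4l, of the same family as Hsph1, was called at 1.39 (SE 0.24, adjusted p = 0.00439), a call lost with library size alone at 0.91 (adjusted p = 0.0537) and in both limma fits. Hspa1b, the classical stress-induced Hsp70, had 1215 and 1352 CPM in PLA, against 338, 243 and 549 CPM in CTS and did not pass (1.77 (SE 0.69, adjusted p = 0.119)), but passed without NC replicate 1 (adjusted p = 0.0388) or NC replicate 2 (adjusted p = 0.0241). It also passed with edgeR on the 5 libraries and in both DESeq2 fits. Hspa1a was not in the table, and reads of such near-identical genes may be split between them. The list took 1.34 ± 0.108% of counts in PLA (SD, n = 2), against 0.725 ± 0.177% in CTS (SD, n = 3), with p = 0.1 in the exact permutation test. The list had 2 calls without PLA replicate 1, CTS replicate 1 or CTS replicate 2 and 1 without PLA replicate 2, and calls ended for Hsp90aa1 without PLA replicate 1, PLA replicate 2, CTS replicate 1 or CTS replicate 2 (adjusted p from 0.0586 to 0.0837), Hsph1 without PLA replicate 1, PLA replicate 2, CTS replicate 1 or CTS replicate 2 (adjusted p from 0.0764 to 0.114) and Dnaja1 without PLA replicate 2 (adjusted p = 0.0597).

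**Figure D4:**
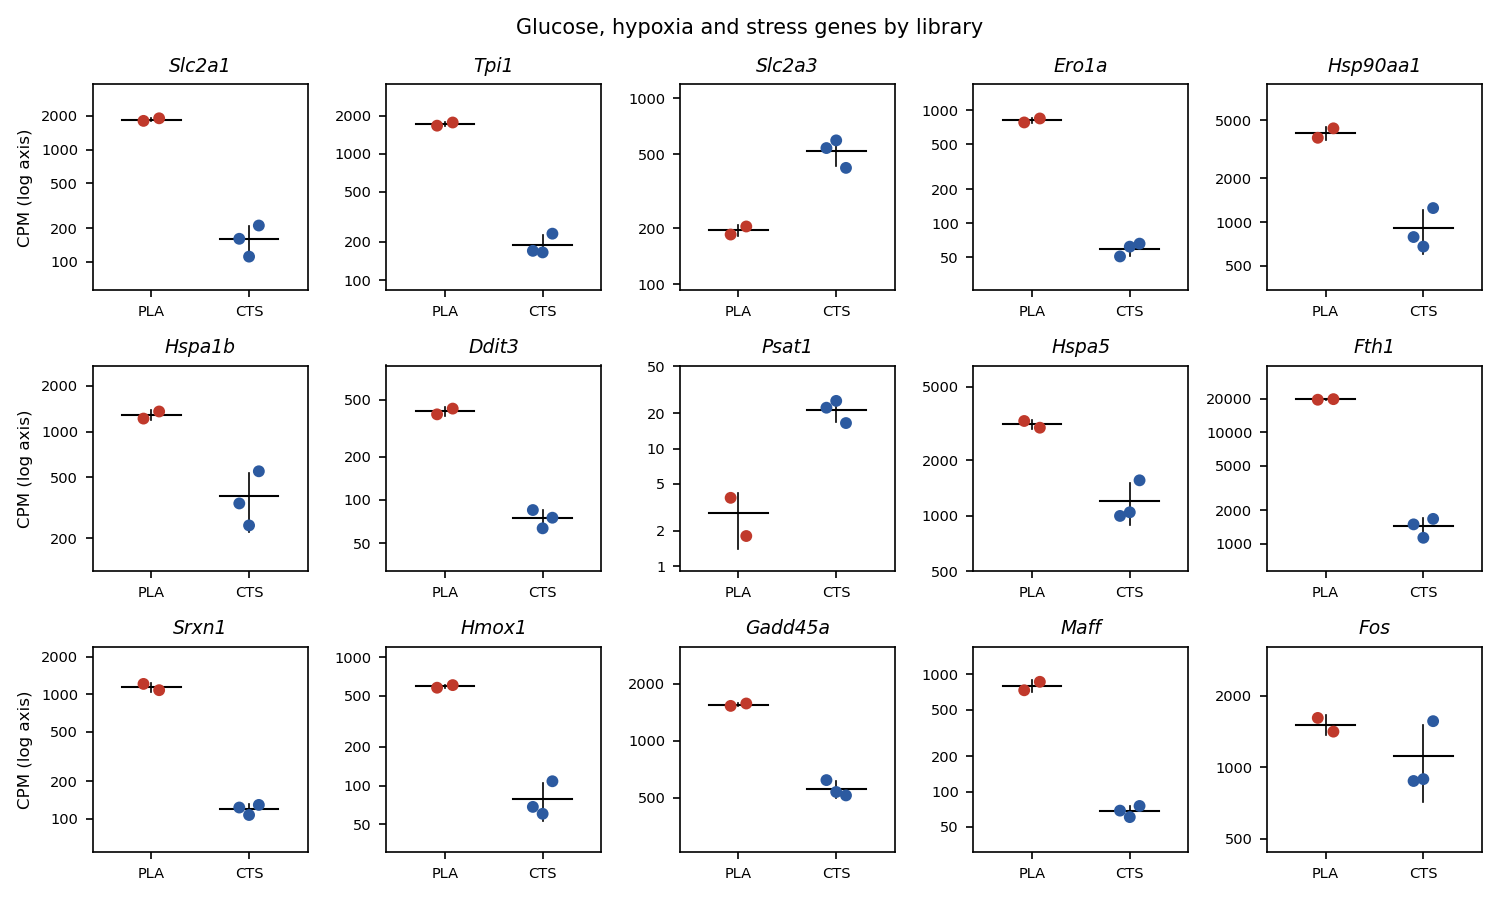
CPM per library on log axes for 15 genes of glucose use, hypoxia and stress, with a point for each library and bars for the mean and its SD (n = 2 in PLA, n = 3 in CTS). PLA lies below CTS for Slc2a3 and Psat1, the groups overlap for Fos, and PLA lies above CTS in the other panels.

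The promoters of a pair of the called members are shown for the heat shock element, the letters that heat shock factors are known to bind. Searched as GAANNTTC or TTCNNGAA, it was in 14 of 19 heat shock promoters found (73.7%), beside 12.1% of all. It starts at position 38 in Hspa4l, and in Dnaja1 181 bases before the gene start and at 9 and 14, where the last pair overlap. Sequences are from RefSeq for GRCr8 with matches in capitals.
Hspa4l, chr2:125668096-125668395, plus strand: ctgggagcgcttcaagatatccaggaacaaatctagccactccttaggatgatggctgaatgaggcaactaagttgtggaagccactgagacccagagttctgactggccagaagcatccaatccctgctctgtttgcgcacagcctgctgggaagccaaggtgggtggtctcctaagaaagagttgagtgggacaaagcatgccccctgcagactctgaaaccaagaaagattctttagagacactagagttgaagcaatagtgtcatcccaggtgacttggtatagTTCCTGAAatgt
Dnaja1, chr5:60638154-60638453, plus strand: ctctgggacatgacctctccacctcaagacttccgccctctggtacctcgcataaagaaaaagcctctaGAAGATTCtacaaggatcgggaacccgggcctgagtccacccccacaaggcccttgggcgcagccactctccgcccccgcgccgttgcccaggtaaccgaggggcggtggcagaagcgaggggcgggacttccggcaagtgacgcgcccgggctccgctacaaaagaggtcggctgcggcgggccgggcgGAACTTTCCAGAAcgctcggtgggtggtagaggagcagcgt

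The integrated stress response, in which several kinases slow translation and raise the factor Atf4, split into higher and lower members. Of 20 tested, 6 were called higher and 2 lower, with a median of 0.36 that became −0.11 with library size alone. Ddit3, the factor Chop, had 396 and 435 CPM in PLA, against 85.0, 63.4 and 75.2 CPM in CTS. Ppp1r15a, which restores translation, had 1568 and 1673 CPM in PLA, against 331, 299 and 459.7 CPM in CTS. Ddit4, an inhibitor of mTORC1, had 414 and 518 CPM in PLA, against 99.2, 90.4 and 109.5 CPM in CTS. None of these overlapped, and log2 fold changes were 2.48 (SE 0.23, adjusted p = 0.000137) for Ddit3, 2.16 (SE 0.28, adjusted p = 0.00102) for Ppp1r15a and 2.22 (SE 0.23, adjusted p = 0.000270) for Ddit4. Cebpb, a partner of Chop, was called at 1.65 (SE 0.15, adjusted p = 0.000137). The members called lower, Psat1 and Phgdh, are enzymes of serine synthesis. Psat1 had 3.81 and 1.80 CPM in PLA, against 22.3, 25.4 and 16.5 CPM in CTS, with log2 fold changes of −2.93 (SE 0.65, adjusted p = 0.0156) and −1.54 (SE 0.36, adjusted p = 0.0203). Atf3 had 477 and 509 CPM in PLA, against 294, 346 and 561 CPM in CTS, with overlap and a log2 fold change of 0.30 (SE 0.40, adjusted p = 0.684) that was −0.18 with library size alone. Leaving out a library ended calls for Psat1 without PLA replicate 1 (adjusted p = 0.0627) or PLA replicate 2 (adjusted p = 0.142) and Phgdh without PLA replicate 1, PLA replicate 2, CTS replicate 1 or CTS replicate 2 (adjusted p from 0.0558 to 0.156).

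The unfolded protein response of the endoplasmic reticulum had 4 of 18 members called higher and 0 lower, with a median of −0.03 like that of all genes. Hspa5, the chaperone BiP, had 3269 and 3006 CPM in PLA, against 999, 1045 and 1558 CPM in CTS, and was called at 1.39 (SE 0.24, adjusted p = 0.00473). The sensors Ern1 and Atf6 were called at 1.22 (SE 0.17, adjusted p = 0.00157) and 1.20 (SE 0.20, adjusted p = 0.00380), and Dnajb9, a co-chaperone of BiP, at 1.17 (SE 0.14, adjusted p = 0.000770). All 4 kept their calls without any 1 library and lost them with library size alone.

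Genes of the oxidant response, many of them targets of Nrf2, were higher in part. Of 26 tested, 10 were called higher and 0 lower, with a median of 0.34 that became −0.14 with library size alone, where 8 were higher and 5 lower. Fth1, the heavy chain of the iron store ferritin, had 19510 and 19750 CPM in PLA, against 1496, 1135 and 1675 CPM in CTS. Ftl1, the light chain, had 5766 and 5292 CPM in PLA, against 677, 582 and 776 CPM in CTS. Sod2, mitochondrial superoxide dismutase, had 4176 and 3972 CPM in PLA, against 714, 598 and 558 CPM in CTS. The groups lay far apart compared with the spread between replicates, with log2 fold changes of 3.77 (SE 0.30, adjusted p = 7.82e-05) for Fth1, 3.03 (SE 0.23, adjusted p = 7.49e-05) for Ftl1 and 2.71 (SE 0.24, adjusted p = 0.000104) for Sod2. Per length, Fth1 stood at 18390.2 ± 23.8 FPKM in PLA (SD, n = 2) and 1873 ± 349 FPKM in CTS (SD, n = 3). Srxn1, which reduces oxidized peroxiredoxins, Hmox1, heme oxygenase, and Sqstm1, the autophagy receptor p62, were called at 3.26 (SE 0.44, adjusted p = 0.00136), 2.91 (SE 0.48, adjusted p = 0.00380) and 2.14 (SE 0.22, adjusted p = 0.000247). Every one of these calls held without any 1 library and with library size alone. The antioxidant response element, TGACNNNGC on either strand, was in 6 of 21 promoters of the list (28.6%), beside 14.1% of all, and in 2 of the 7 called members with a promoter.

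Targets of p53 had 5 of 16 members called higher and 0 lower, with a median of 0.82, or 0.34 with library size alone. Bax, which permeabilises mitochondria, had 48.2 and 45.3 CPM in PLA, against 13.1, 11.7 and 16.9 CPM in CTS, and Plk2, a polo-like kinase, had 319 and 301 CPM in PLA, against 80.7, 58.6 and 109.9 CPM in CTS. Both were called without any 1 library, at 1.75 (SE 0.24, adjusted p = 0.00133) and 1.90 (SE 0.29, adjusted p = 0.00243). Gadd45a, a growth arrest gene, and Fas, a death receptor, were called at 1.48 (SE 0.29, adjusted p = 0.00873) and 1.71 (SE 0.39, adjusted p = 0.0172), and the calls were lost for Gadd45a without PLA replicate 1 (adjusted p = 0.0570) or PLA replicate 2 (adjusted p = 0.0633) and Fas without PLA replicate 1, PLA replicate 2, CTS replicate 1 or CTS replicate 3 (adjusted p from 0.0505 to 0.121). Both were also lost with library size alone, at 1.00 (adjusted p = 0.0628) for Gadd45a and 1.23 (adjusted p = 0.0699) for Fas, and in both limma fits. The list had 2 calls without either PLA library and 2 with library size alone. Mdm2, which degrades p53, had 196 and 201 CPM in PLA, against 102, 98.1 and 117 CPM in CTS, above CTS without passing the test (0.91 (SE 0.27, adjusted p = 0.0517)).

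Of 5 metallothionein and zinc genes, 1 was called higher and 0 lower, a single gene that makes 20% of this short list, beside 6.42% of all genes. Slc39a14, an importer of zinc and iron, had 267 and 199.7 CPM in PLA, against 39.6, 35.4 and 74.9 CPM in CTS and a log2 fold change of 2.22 (SE 0.58, adjusted p = 0.0303), a call lost without GelMA replicate 1, GelMA replicate 2, GelMA replicate 3, PLA replicate 1, PLA replicate 2, CTS replicate 1 or CTS replicate 2 (adjusted p from 0.0507 to 0.163). Mt1, a metallothionein, had 46.9 and 41.0 CPM in PLA, against 17.3, 21.8 and 32.8 CPM in CTS, and Mt2A, another, had 119.9 and 112 CPM in PLA, against 39.6, 44.1 and 119 CPM in CTS. CTS replicate 3 reached into the PLA range in Mt2A, and neither passed, at 0.87 (SE 0.53, adjusted p = 0.311) and 0.78 (SE 0.70, adjusted p = 0.517).

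Immediate early genes, which respond within minutes to growth signals and stress, had 11 of 25 members called higher and 0 lower, with a median of 0.97, or 0.49 with library size alone, where 4 were higher. Maff, a small Maf factor, had 729 and 861 CPM in PLA, against 68.7, 60.5 and 75.3 CPM in CTS. Dusp2, a phosphatase of MAP kinases, had 623 and 599 CPM in PLA, against 105, 68.5 and 152 CPM in CTS. Ier3, an early response gene of cell survival, had 1116 and 1045 CPM in PLA, against 295, 303 and 369 CPM in CTS. They were called at 3.54 (SE 0.43, adjusted p = 0.000769) for Maff, 2.49 (SE 0.38, adjusted p = 0.00242) for Dusp2 and 1.75 (SE 0.23, adjusted p = 0.00106) for Ier3, calls kept without any 1 library and with library size alone, and Fosl2, an AP-1 subunit, was called at 1.18 (SE 0.17, adjusted p = 0.00206), a call lost with library size alone at 0.70 and in both limma fits. The list had 6 calls without either PLA library and 7 without CTS replicate 1. Fos itself had 1613 and 1412 CPM in PLA, against 875, 891 and 1563 CPM in CTS, with overlap and a log2 fold change of 0.45 (SE 0.30, adjusted p = 0.364) that was −0.03 with library size alone. Over all 7 stress lists, the higher and lower genes numbered 28 and 0 when PLA replicate 1 was left out and 29 and 0 for PLA replicate 2. They numbered 33 and 1 when CTS replicate 1 was left out, 34 and 1 for CTS replicate 2, 45 and 3 for NC replicate 1, and 46 and 4 for NC replicate 2. Mitochondrially encoded genes took 3.33 ± 0.230% of counts in PLA (SD, n = 2), against 6.04 ± 0.457% in CTS (SD, n = 3; exact permutation p = 0.1), and their part in these results was not tested.

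The 12 largest rises had log2 fold changes from 4.61 to 7.10 and were Saal1, Il23a, Ca4, Cxcl3, Mtmr7, Ciart, Csf3, Cxcl6, Tgm1, Cd274, Ebi3 and Tnf. Cytokine and chemokine genes make up 6 of them. Cd274, the checkpoint ligand PD-L1, had 2819 and 3209 CPM in PLA, against 129.7, 82.6 and 113 CPM in CTS. Ca4, a membrane-bound carbonic anhydrase, had 1672 and 1728 CPM in PLA, against 4.64, 11.8 and 31.3 CPM in CTS. Cxcl6, a neutrophil chemokine, had 87.0 and 89.9 CPM in PLA, against 3.37, 1.11 and 4.07 CPM in CTS. Within CTS the libraries of Ca4 spread widely, and those of Cd274 did not. Log2 fold changes were 4.80 (SE 0.39, adjusted p = 7.93e-05) for Cd274, 6.74 (SE 0.77, adjusted p = 0.000486) for Ca4 and 4.96 (SE 0.89, adjusted p = 0.00581) for Cxcl6. Tgm1, a transglutaminase known from the skin barrier, had 116 and 108 CPM in PLA, against 1.24, 3.19 and 6.98 CPM in CTS, a log2 fold change of 4.88 (SE 0.67, adjusted p = 0.00140). Every one of the 12 calls held under each alternative tried.

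**Figure D5:**
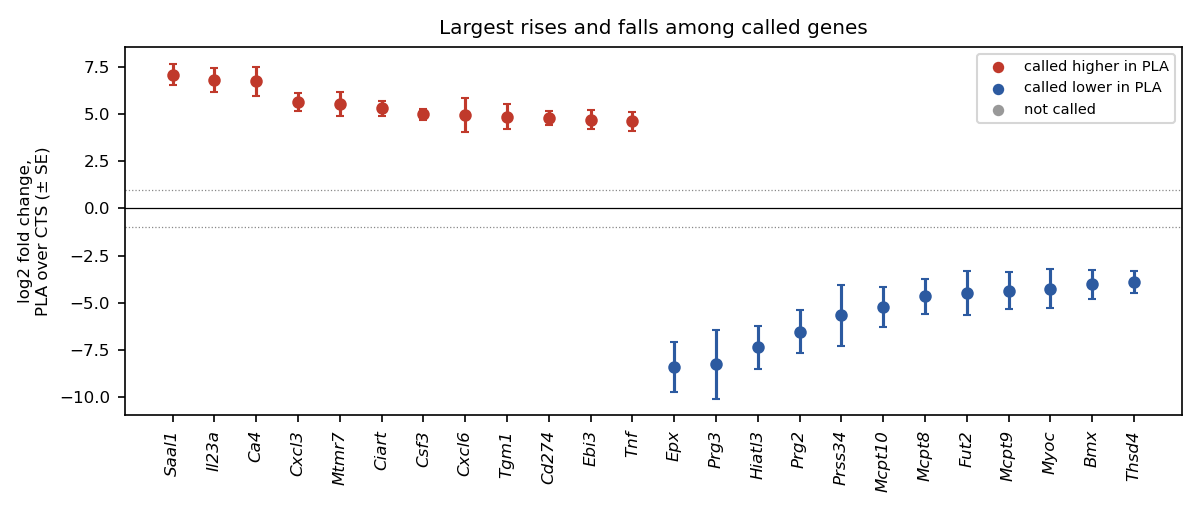
Log2 fold change (PLA over CTS) with its SE of the 12 largest rises and 12 largest falls among called genes whose log2 CPM averaged 3 or more, with dotted lines at the fold threshold. The rises run from 4.61 to 7.10, and most of the falls have wider error bars than the rises.

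The 12 largest falls were Epx, Prg3, Hiatl3, Prg2, Prss34, Mcpt10, Mcpt8, Fut2, Mcpt9, Myoc, Bmx and Thsd4, with log2 fold changes from −8.43 to −3.91. Granule genes of eosinophils, mast cells and basophils make up 7 of them. Mcpt10 had 20.9 and 22.6 CPM in PLA, against 947, 1081 and 402 CPM in CTS, Mcpt8, a basophil protease in the mouse, had 13.1 and 7.43 CPM in PLA, against 314, 321 and 146 CPM in CTS, and Mcpt9 had 15.0 and 15.2 CPM in PLA, against 409.5, 371 and 149 CPM in CTS. CTS replicate 3 was the lowest CTS library in each of these. That it lay above PLA follows from the choice of genes, since the largest falls were taken among genes without overlap. Log2 fold changes were −5.22 (SE 1.06, adjusted p = 0.0103) for Mcpt10, −4.66 (SE 0.92, adjusted p = 0.00919) for Mcpt8 and −4.36 (SE 0.97, adjusted p = 0.0159) for Mcpt9, uncertain insofar as reads of these related proteases can be split between them. Prss34, another protease of basophils in the mouse, had 0.829 and 3.57 CPM in PLA, against 221, 106 and 9.21 CPM in CTS. It varied widely within CTS, and its log2 fold change was −5.67 (SE 1.63, adjusted p = 0.0440). Hiatl3 had 0.663 and 0.0860 CPM in PLA, against 69.9, 74.7 and 45.8 CPM in CTS, a log2 fold change of −7.38 (SE 1.15, adjusted p = 0.00274). Bmx, a tyrosine kinase of the Tec family, had 6.22 and 6.92 CPM in PLA, against 113, 136 and 70.6 CPM in CTS, and Thsd4, a protein of extracellular microfibrils, had 0.497 and 0.559 CPM in PLA, against 5.79, 7.71 and 10.5 CPM in CTS, with log2 fold changes of −4.02 (SE 0.77, adjusted p = 0.00784) and −3.91 (SE 0.59, adjusted p = 0.00229). Thsd4 had few counts in PLA, 12 and 13. It lost its call with limma on log2(FPKM + 1), at −0.79 (adjusted p = 0.0712). Prg3, a homologue of Prg2, Fut2, a fucosyltransferase, and Myoc, which encodes myocilin, were called at −8.28 (SE 1.81, adjusted p = 0.0150), −4.48 (SE 1.15, adjusted p = 0.0288) and −4.26 (SE 1.04, adjusted p = 0.0236). Calls were lost for Prg2 without PLA replicate 1 (adjusted p = 0.0691) or PLA replicate 2 (adjusted p = 0.0562), Prg3 without PLA replicate 1 (adjusted p = 0.0926) or PLA replicate 2 (adjusted p = 0.128), Prss34 without GelMA replicate 1, GelMA replicate 2, NC replicate 3, PLA replicate 1, PLA replicate 2, CTS replicate 1 or CTS replicate 2 (adjusted p from 0.0605 to 0.249), Mcpt10 without PLA replicate 1 (adjusted p = 0.103) or PLA replicate 2 (adjusted p = 0.1005), Mcpt8 without PLA replicate 1 (adjusted p = 0.0715) or PLA replicate 2 (adjusted p = 0.104), Fut2 without PLA replicate 1, PLA replicate 2, CTS replicate 1 or CTS replicate 2 (adjusted p from 0.0623 to 0.204), Mcpt9 without PLA replicate 1 (adjusted p = 0.128) or PLA replicate 2 (adjusted p = 0.128), Myoc without PLA replicate 1 (adjusted p = 0.103) or CTS replicate 1 (adjusted p = 0.0505) and Bmx without PLA replicate 1 (adjusted p = 0.0863) or PLA replicate 2 (adjusted p = 0.0804).

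Of the markers of other cells in the tissue, pericyte genes went higher in part. Those of 4 other types were not called in the edgeR fit on all groups. By edgeR, 0 of 12 fibroblast, 0 of 11 osteoblast, 0 of 10 endothelial and 0 of 10 erythroid genes were called. In that fit 1, 3, 2 and 3 of them had an unadjusted p under 0.05. All genes were not counted at that cut, so these counts have no share to be read against. Without the fold threshold, 1 osteoblast gene passed as higher (adjusted p = 0.0163 by edgeR), beside 1464 of all 18049 genes. DESeq2 on all groups called 1 gene higher in each list and 2 erythroid genes lower. Over all 18049 genes it called 1603 higher and 1074 lower. DESeq2 on PLA and CTS and edgeR on the 5 libraries each called 3 fibroblast genes higher. Over all genes these fits called 1897 and 1546 higher. In the other lists their numbers were those of DESeq2 on all groups. Without NC replicate 2, edgeR called 2 fibroblast genes higher. Median log2 fold changes were 0.12 for the fibroblast, 0.37 for the osteoblast and 0.31 for the endothelial genes, and all 3 fell below 0, to −0.36, −0.10 and −0.17, with library size alone. The erythroid median was −2.08, or −2.56 with library size alone, and 3 of the 10 genes lay above 0. That list holds genes near the floor. Ahsp had 1 count in PLA and 202 in CTS, and Alas2 had 2 and 93. Epb42 had 0 and 8, at least 1.32-fold lower in PLA, and the median was not recomputed at that bound. Yet the summed level of the erythroid genes was 366 and 374 CPM in PLA, against 210, 218 and 175 CPM in CTS. The summed level of the fibroblast genes was 27640 and 40980 CPM in PLA, against 25650, 34600 and 40740 CPM in CTS, so that the groups overlapped. The osteoblast genes summed to 1013 and 1007 CPM in PLA, against 602, 420.2 and 1318 CPM in CTS, also with overlap. Pericyte and smooth muscle genes had 2 of 10 called higher, Mcam, an adhesion molecule, at 1.97 (SE 0.50, adjusted p = 0.0265) and Tagln, the actin-binding protein transgelin, at 1.68 (SE 0.45, adjusted p = 0.0345), and PLA lay above CTS in 8 of 10 with a median of 1.55. DESeq2 called 8 of the 10 higher, as did edgeR on the 5 libraries, and leaving out NC replicate 1 or NC replicate 2 gave 7, CTS replicate 3 gave 4, and either PLA library, CTS replicate 1 or CTS replicate 2 gave 0. Their summed level was 1255 and 808.5 CPM in PLA, against 283, 255 and 524.5 CPM in CTS. The calls were lost for Mcam without PLA replicate 1, PLA replicate 2, CTS replicate 1 or CTS replicate 2 (adjusted p from 0.0693 to 0.189) and Tagln without GelMA replicate 1, GelMA replicate 2, GelMA replicate 3, PLA replicate 1, PLA replicate 2, CTS replicate 1 or CTS replicate 2 (adjusted p from 0.0502 to 0.214), and that of Tagln also with library size alone at 1.21 (adjusted p = 0.0877).

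Monocyte and macrophage genes had 4 of 17 called higher and 1 lower, with a median of 0.48. The higher calls are 23.5% of the list, beside 6.42% of all genes. The lower call is 5.88%, near the 3.53% of all genes called lower. With library size alone 2 were higher and 2 lower, with a median of −0.002. The summed level of the list went the other way, with 5798 and 6441 CPM in PLA, against 13650, 12360 and 11000 CPM in CTS. Msr1, a scavenger receptor, had 503 and 519.6 CPM in PLA, against 71.6, 66.3 and 96.7 CPM in CTS, and Adgre1, which encodes F4/80, had 71.3 and 85.2 CPM in PLA, against 18.7, 22.3 and 18.9 CPM in CTS. Ccr2, the chemokine receptor of inflammatory monocytes, had 89.9 and 87.7 CPM in PLA, against 281, 192 and 282 CPM in CTS. PLA lay above CTS for the scavenger receptor and F4/80 and below CTS for Ccr2, with log2 fold changes of 2.71 (SE 0.35, adjusted p = 0.00107), 1.97 (SE 0.22, adjusted p = 0.000433) and −1.50 (SE 0.33, adjusted p = 0.0153). Their part in the other results was not tested. B cell genes had 3 of 10 called lower and 0 higher, among them Bank1, a scaffold of B cell signaling, at −1.70 (SE 0.41, adjusted p = 0.0223) and Cd79b, which signals for the B cell antigen receptor, at −1.75 (SE 0.43, adjusted p = 0.0239). Prf1, perforin of killer cells, was the 1 of 12 T and NK cell genes called, at 1.70 (SE 0.47, adjusted p = 0.0392). That is 8.33% of the list, near the 6.42% of all genes that were called higher. Of 9 osteoclast genes, Oscar, an activating receptor of the osteoclast lineage, was called higher at 2.24 (SE 0.45, adjusted p = 0.00971). Ocstamp, a gene of osteoclast fusion, was called lower at −3.14 (SE 0.76, adjusted p = 0.0230). Ocstamp had few counts, 6 and 8 in PLA, against 113, 44 and 97 in CTS. Limma on log2(FPKM + 1) gave it −0.41, under the fold threshold. Each call is 11.1% of the list, beside 6.42% of all genes called higher and 3.53% called lower. With library size alone Prf1 fell to 1.22 (adjusted p = 0.0681) and lost its call, and the T and NK cell list had 0 higher and 1 lower. The B cell list had 0 calls without PLA replicate 1 or CTS replicate 1, 1 without PLA replicate 2 and 5 without NC replicate 2, and the monocyte and macrophage list had 2 higher calls without any 1 of PLA replicate 1, PLA replicate 2, CTS replicate 1 and CTS replicate 2. Among these immune genes, calls were lost for Ccr2 without PLA replicate 1 (adjusted p = 0.112) or PLA replicate 2 (adjusted p = 0.121), Bank1 without PLA replicate 1, PLA replicate 2 or CTS replicate 1 (adjusted p from 0.0618 to 0.185), Cd79b without PLA replicate 1 (adjusted p = 0.190) or CTS replicate 1 (adjusted p = 0.0659), Prf1 without GelMA replicate 1, GelMA replicate 2, GelMA replicate 3, NC replicate 3, PLA replicate 1, PLA replicate 2, CTS replicate 1, CTS replicate 2 or CTS replicate 3 (adjusted p from 0.0546 to 0.295), Oscar without PLA replicate 1 (adjusted p = 0.0584) or PLA replicate 2 (adjusted p = 0.0590) and Ocstamp without PLA replicate 1, PLA replicate 2, CTS replicate 1 or CTS replicate 3 (adjusted p from 0.0527 to 0.163).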

How the data were processed

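RNA-seq was analysed in 11 libraries of cells labelled Cd45-. Per the labels, the authors' processing named fastp, HISAT2, HTSeq, DESeq and the build mRatBN7.2, without versions. The deposited tables hold raw read counts per gene and FPKM (fragments scaled by gene length and library size) for 23781 genes by symbol, with neither positions nor isoforms. FPKM carries no composition factor and served for levels per length and for an alternative.

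The counts went into edgeR 4.0.16 under R 4.3.3. Of all genes, 18049 passed filterByExpr (minimum count 10), libraries were scaled by TMM, and one robust quasi-likelihood fit over the 4 groups, with no other covariate, supplied the spread, since PLA has 2 libraries. The contrast was PLA minus CTS, and p-values were adjusted by the Benjamini-Hochberg method across all 18049 genes. SE is the log2 fold change divided by the square root of F. Where a group had 0 counts, its floor was 3 counts summed over its libraries, and genes with 1 to 3 counts were given a ratio with its exact 95% interval, which covers counting error alone. Single shares of counts were compared by exact two-sided permutation.

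The 26 gene lists, with 451 entries of which 439 were tested, were chosen with earlier results of these data known, so they are not independent of them. Lists are described by counts and medians, with no test over a list. Named genes were the 12 largest log2 fold changes per direction among called genes without overlap whose log2 CPM averaged 3 or more and whose symbol is not a placeholder, up to 4 called members per direction of each proliferation, granulocyte, glycolysis and stress list by adjusted p (up to 2 of each other list), and 30 fixed genes.

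The alternatives tried were scaling by RLE or by library size alone, leaving out the filter or the fold threshold, edgeR on the 5 libraries, DESeq2 1.42.0 on all groups or on PLA and CTS, limma 3.58.1 on log2(FPKM + 1) and log2(FPKM + 0.1), the replicate number as a block, each library left out, and shares without the 10 most abundant genes. Promoters came from RefSeq (GRCr8), matched by symbol. Figures used Python 3.11.15 and matplotlib 3.10.9. Reads were not analysed here.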

Additional observations from a re-analysis of the deposited data

How the results depend on the processing

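No called gene named in the text took the opposite sign under any alternative tried, but the numbers of calls moved. With RLE size factors there were 1212 higher and 568 lower genes and without the filter 1017 and 640. With library size alone 688 genes were higher and 2227 lower, 8 glycolysis genes higher and 5 lower, and 24 stress genes higher and 8 lower. Limma on log2(FPKM + 1) gave 596 and 1354, 7 and 5 for glycolysis, 24 and 7 for stress and 3 granulocyte genes higher, and on log2(FPKM + 0.1) it gave 771 and 2178, 7 and 5, 24 and 8, and 3. Without a fold threshold 1464 genes were higher and 1058 lower, with 3 glycolysis and 4 stress genes lower. EdgeR on the 5 libraries gave 1546 and 1121, with 9 granulocyte genes higher and 1 glycolysis and 5 stress genes lower. DESeq2 gave 1603 and 1074 on all groups, with 1 glycolysis gene and 3 stress genes lower, and 1897 and 1363 on PLA and CTS, with 10 granulocyte genes higher and 2 glycolysis and 4 stress genes lower. The cause of these shifts was not tested.

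Leaving out 1 library at a time gave 642 to 1588 higher and 95 to 1111 lower genes, 9 to 81 proliferation genes lower and 1 to 2 higher, 5 to 33 granulocyte genes lower and 3 to 9 higher, 9 to 18 glycolysis genes higher and 0 to 2 lower, and 28 to 46 stress genes higher and 0 to 4 lower. Without a PLA library the other one is assumed to vary like the other groups.

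The replicate number as a block gave 998 higher and 434 lower genes. Over the 15 same-numbered pairs, correlations of the deviations from the group means ran from −0.225 for NC and CTS replicates 3 to 0.339 for NC and CTS replicates 1, and were 0.001 and 0.05 for the PLA and CTS pairs, so the numbers are not taken as a pairing.

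With library size alone, the log2 fold changes of Pcna, Ccnd1, Atf3 and Fos became −0.0479, −0.0512, −0.179 and −0.0304. With limma, Pcna became −0.0478 at a pseudocount of 1 and −0.0479 at 0.1, and Atf3 −0.125 at both. None of these genes was called. Shares of counts kept their direction when the 10 most abundant genes left the total.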
